A study of Danio rerio with 15 samples.

Results

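Mdm2 and Mdm4 are the principal inhibitors of p53 in vertebrates. Both bind the transactivation domain of p53 and block it, and Mdm2 is in addition a RING ubiquitin ligase that marks p53 for degradation by the proteasome. Mdm4 has little ligase activity of its own and joins Mdm2 through its RING domain. The *mdm2* gene is itself activated by p53, which closes a negative feedback loop, and in zebrafish and mice embryos without *mdm2* die when p53 is present. The array holds 2 probe sets for these genes, 1 whose single gene symbol is *mdm2* and 1 whose single symbol is *mdm4*, of 15502 probe sets tested and of 8793 genes with a probe set of their own. No probe set with several symbols includes either gene.

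Expression was read on 15 zebrafish arrays of Affymetrix, each carrying the RNA of a pool of 50 dechorionated whole embryos. The embryos were wild type and had been injected shortly after fertilization with a morpholino against the start codon of *esco2* (morphants) or with buffer only (controls), and were collected at 24 or 48 hpf (hours post-fertilization). There were 4 arrays of controls and 4 of morphants at 24 hpf, and 3 of controls (numbered 1, 3 and 4) and 4 of morphants at 48 hpf. Esco2 is the acetyltransferase that establishes cohesion between sister chromatids. No array carries embryos injected with an unrelated morpholino, so loss of Esco2 and injection of a morpholino cannot be told apart in any difference given here. In RNA of whole embryos a change in the level per cell and a change in the share of the cells that hold the transcript cannot be told apart either.

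Values are log2 of the RMA signal as deposited, a scale on which a difference of 1 is a factor of 2. Differences, standard errors (SE) and 95% confidence intervals come from 1 limma fit to all 15 arrays. Their p-values are two-sided and adjusted over the 15502 probe sets by the Benjamini and Hochberg method. Calls of raised or lowered rest on an adjusted p no larger than 0.05, and a fold of 2 is given as a further limit. The median of the arrays lay between 5.76 and 5.92. Control replicate 3 at 48 hpf stood apart, with a mean correlation of 0.985 with the arrays of its group, against 0.989 to 0.997 for the other arrays. The neuron gene *elavl3* read 8.44 in this array and 9.99 and 10.3 in the other controls of 48 hpf. Muscle, blood, epidermis and dividing cell genes (*mylpfa*, *hbae3*, *krt4* and *pcna*) had group means of 12.1 or more in all groups. The *esco2* transcript, whose translation the morpholino blocks, read 8.71 to 8.97 in morphants and 9.10 to 9.19 in controls at 24 hpf. At 48 hpf it read 8.28 to 8.68 in morphants and 8.01 to 8.23 in controls.

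The *mdm2* transcript was strongly raised in *esco2* morphants at 24 hpf. The controls read 7.48, 7.48, 7.52 and 7.55, and the morphants 9.95, 9.80, 10.16 and 10.11. The lowest morphant lay 2.25 above the highest control on the log2 scale, and the controls were the tightest group of the gene. The means were 7.51 ± 0.03 (SD, n = 4) and 10.01 ± 0.16 (SD, n = 4), a 5.65-fold rise (log2 difference 2.50, SE 0.08, interval 2.33 to 2.67, adjusted p = 7.4e-13 from limma). Among all probe sets this was rise number 11 by size and number 3 by p-value. Of all probe sets 4.43% were raised at 24 hpf and 0.381% were also past a fold of 2, as *mdm2* was. In 10.0% every morphant lay above every control.

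At 48 hpf *mdm2* was raised about as much. The controls read 7.04, 6.84 and 6.91, and the morphants 9.19, 9.18, 9.18 and 9.33. The groups lay 2.14 apart, and morphant replicates 1 to 3 differed by less than the spread of the controls. The means were 6.93 ± 0.10 (SD, n = 3) and 9.22 ± 0.07 (SD, n = 4), a 4.89-fold rise (log2 difference 2.29, SE 0.09, interval 2.11 to 2.47, adjusted p = 2.7e-11 from limma). This was rise number 5 by size, and 0 of the other probe sets had a smaller p-value at 48 hpf. At this time 12.8% of all probe sets were raised, 0.697% past a fold of 2, and in 14.1% every morphant lay above every control. After each array was centred on the ribosomal protein genes, 4600 probe sets were raised and 726 lowered at 48 hpf, in place of 1988 and 1518, and *mdm2* was raised by 2.43. Without control replicate 3 its difference was 2.24 (adjusted p = 3.4e-11).

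The *mdm4* transcript moved the other way. At 24 hpf its controls read 7.43, 7.48, 7.41 and 7.56, and its morphants 6.81, 6.48, 6.71 and 6.72. Every morphant lay below every control, with a gap of 0.60. The means were 7.47 ± 0.07 (SD, n = 4) and 6.68 ± 0.14 (SD, n = 4), so that *mdm4* fell by 0.79 on the log2 scale to 57.7% of the control level (SE 0.10, interval -1.01 to -0.58, adjusted p = 5.9e-05 from limma). The fall did not reach a fold of 2, which 0.103% of all probe sets did downward. Of all probe sets 5.33% were lowered at 24 hpf, and in 10.9% every morphant lay below every control. Among all probe sets this was fall number 51 by size.

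At 48 hpf the *mdm4* controls read 7.46, 7.06 and 7.38, and the morphants 6.56, 6.61, 6.77 and 6.97. The groups did not overlap, but control replicate 3, the array that stands apart, lay only 0.09 above the highest morphant. The means were 7.30 ± 0.21 (SD, n = 3) and 6.73 ± 0.18 (SD, n = 4), and *mdm4* fell by 0.57 to 67.2% of the control level (SE 0.11, interval -0.81 to -0.34, adjusted p = 0.0011 from limma). Without control replicate 3 the log2 difference was -0.69 (adjusted p = 1.4e-04). At 48 hpf 9.79% of all probe sets were lowered, 0.213% past a fold of 2, and in 11.9% every morphant lay below every control. The residual SD of *mdm4* about its group means was 0.155, against 0.105 for *mdm2* and a median of 0.133 over all probe sets. Of 9 measured cell type markers, *elavl3* was lower in every morphant than in every control at 24 hpf (8.21 to 8.64 against 8.67 to 9.16; log2 difference -0.48, adjusted p = 0.32). These are values of the brightest of its 4 probe sets. The SE of 0.27 behind this p came from the fit to all arrays. In that fit the SD of *elavl3* was 1.01 in controls at 48 hpf and 0.20 in each group of 24 hpf. At 48 hpf *elavl3* had a log2 difference of -0.003 (adjusted p = 0.995 from limma), a value that rests on control replicate 3. This array read 8.44, below every morphant (9.37 to 9.91). Control replicates 1 and 4 read 9.99 and 10.3, above every morphant. The order was the same in all 4 probe sets. The difference of *elavl3* without this array is not given here. The neural crest gene *sox10* fell by 0.58 at 48 hpf (adjusted p = 6.2e-05), and the heart gene *myl7* rose by 0.55 (adjusted p = 2.4e-05). Neither *sox10* nor *myl7* was called at 24 hpf. The markers *mylpfa*, *hbae3*, *hbbe3*, *krt4*, *cryaa* and *pcna* were called at neither time. The part of *elavl3*, *sox10* and *myl7* in the fall of *mdm4* was not tested.

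**Figure D1:**
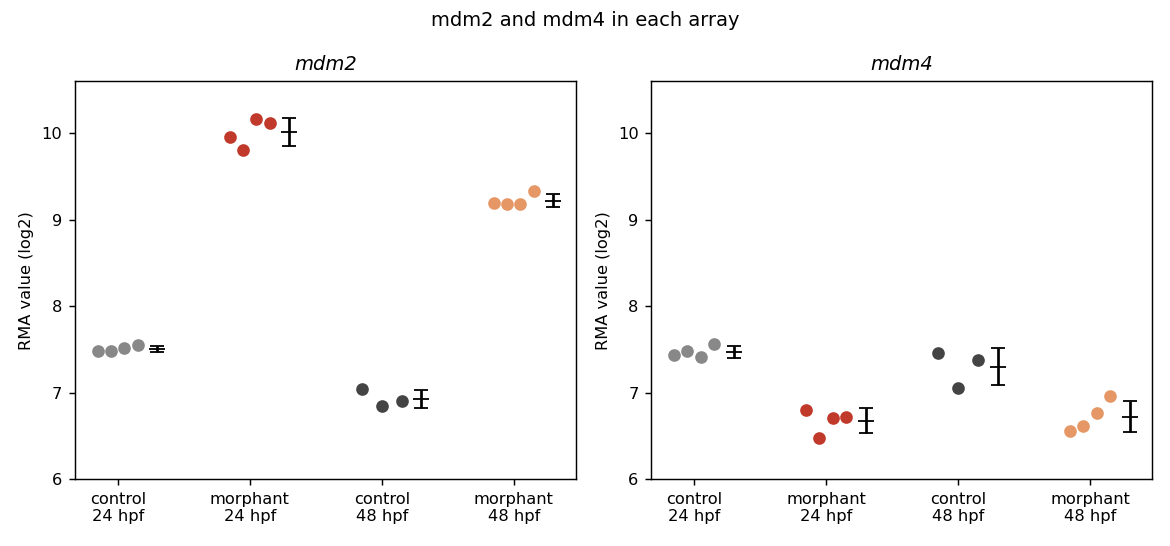
RMA values (log2) of *mdm2* (left) and *mdm4* (right) in controls and *esco2* morphants at 24 and 48 hpf. Each point is 1 array in the order of its replicate number, and the black bar beside each group is its mean ± SD (n = 4, or 3 for controls at 48 hpf). The morphants lie above the controls for *mdm2* and below them for *mdm4* at both times.

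Whether the response changed between the time points was asked of each gene with the difference of the effects. For *mdm2* the rise at 24 hpf was larger by 0.21 (SE 0.12, interval -0.04 to 0.46, adjusted p = 0.36 from limma). For *mdm4* the difference of the effects was -0.22 (SE 0.15, interval -0.54 to 0.10, adjusted p = 0.48). Neither was called, and the intervals leave room for a difference of up to 0.46 for *mdm2* and 0.54 for *mdm4*. Of all probe sets 6.28% had effects that differed between the times.

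In normal development from 24 to 48 hpf *mdm2* went down and *mdm4* was not called. In controls *mdm2* fell by 0.58 (SE 0.09, adjusted p = 2.5e-05), with the highest control of 48 hpf 0.44 below the lowest of 24 hpf. In morphants it fell by 0.79 (SE 0.08, adjusted p = 2.9e-07), again without overlap. A fall over this day was common, since 25.0% of all probe sets were lowered in controls and 21.4% in morphants, and in 24.4% and 21.6% the groups did not overlap. The log2 difference of *mdm4* from 24 to 48 hpf was -0.17 in controls (SE 0.11, interval -0.41 to 0.06, adjusted p = 0.22) and 0.05 in morphants (SE 0.10, interval -0.17 to 0.26, adjusted p = 0.76), and the groups overlapped in both. Without control replicate 3 the difference in controls was -0.05. The *mdm2* levels thus ran from morphants at 24 hpf through morphants at 48 hpf and controls at 24 hpf to controls at 48 hpf. All neighbours in this order were called as different, and morphants at 48 hpf exceeded controls at 24 hpf 3.28-fold (log2 difference 1.71, SE 0.08, adjusted p = 1.2e-11), in a comparison in which 22.3% of all probe sets were higher. For *mdm4* the order was controls at 24 hpf, controls at 48 hpf, morphants at 48 hpf and morphants at 24 hpf. Only the middle pair of neighbours, controls and morphants of 48 hpf, was called as different.

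The balance of both inhibitors was followed within each array as the *mdm2* value minus the *mdm4* value. The level of one probe set cannot be set against that of another, but a shift of this difference between groups can be read. It lay between -0.01 and 0.10 in controls at 24 hpf and between 3.14 and 3.45 in morphants. The means were 0.03 ± 0.05 and 3.33 ± 0.13 (SD, n = 4 each), so that the ratio of *mdm2* to *mdm4* signal was shifted by 3.29 on the log2 scale, or 9.80-fold (exact two-sided permutation test, p = 0.029, the smallest that 4 against 4 arrays allow). At 48 hpf the difference lay between -0.47 and -0.22 in controls and between 2.36 and 2.64 in morphants. The shift was 2.86, or 7.28-fold (exact two-sided permutation test, p = 0.057, the smallest that 4 against 3 arrays allow). At both times the within-array difference of every morphant exceeded that of every control by more than the spread within either group. Each shift is the rise of *mdm2* plus the fall of *mdm4* given above, and is no separate result. Morphants and controls did not overlap for either gene at either time. The full separation and the smallest possible p therefore had to follow, and the exact tests add no evidence to the tests of each gene.

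**Figure D2:**
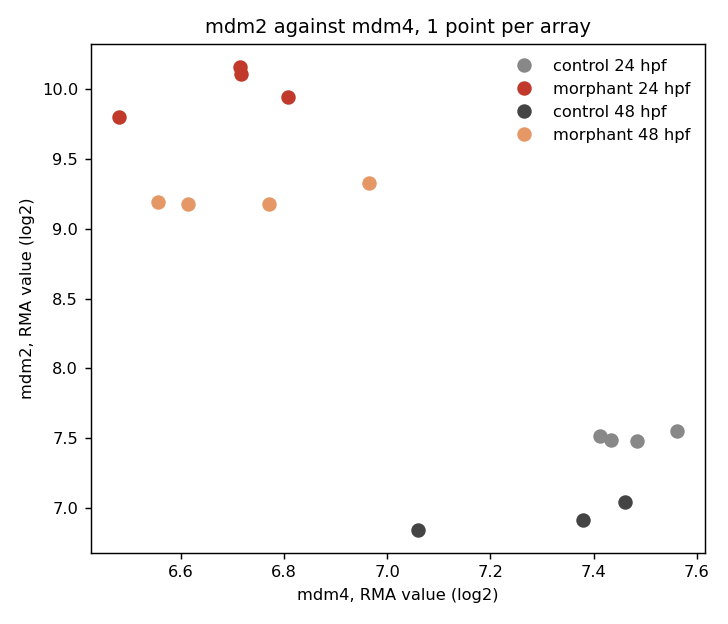
The *mdm2* value against the *mdm4* value (both log2 RMA values), with 1 point for each of the 15 arrays, coloured by group. The 8 morphant arrays lie at the upper left and the 7 control arrays at the lower right, and for neither gene does the range of the morphants overlap that of the controls.

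Regulators of p53 and partners of Mdm2 or Mdm4, with the p53 relatives *tp63* and *tp73*, were examined as a list. Of its genes 40 have a probe set of their own. At 24 hpf 1 of their transcripts rose and 2 fell, where 9.77% of all probe sets were called in either direction, and the median log2 difference was -0.01, against 0.00 over all probe sets. At 48 hpf 4 rose and 6 fell, where 22.6% of all probe sets were called, with a median of 0.05, against 0.01. Both counts are near what these shares give for 40 genes. No member passed a fold of 2 at either time. The split at 48 hpf changed to 15 raised and 2 lowered after centring on the ribosomal protein genes, and to 6 and 3 without control replicate 3.

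Among the kinases and phosphatases of the list, *ppm1da* encodes Wip1, the phosphatase that dampens p53 signaling and that p53 activates in human cells. It was lowered, as *mdm4* was, by 0.45 at 24 hpf (SE 0.08, adjusted p = 0.0014 from limma) and by 0.46 at 48 hpf (SE 0.09, adjusted p = 7.8e-04). Its paralog *ppm1db* fell at 48 hpf by 0.29 (adjusted p = 0.043). The checkpoint kinase gene *chek1* had log2 differences of -0.24 at 24 hpf (adjusted p = 0.12) and 0.30 at 48 hpf (adjusted p = 0.037). Of the nuclear cofactors, *crebbpb*, which encodes an acetyltransferase that acts on p53, fell by 0.33 at 24 hpf (adjusted p = 0.015) and by 0.43 at 48 hpf (adjusted p = 0.0016). Without control replicate 4 at 24 hpf its difference at 24 hpf was -0.30 (adjusted p = 0.052).

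Of the 8 genes of deubiquitinases and ubiquitin ligases, 1 rose at 24 hpf and 1 fell at 48 hpf. Of all probe sets 4.43% were raised at 24 hpf and 9.79% lowered at 48 hpf. A count of 1 among so few genes says nothing about the group as a whole. The gene *usp2a*, whose human relative removes ubiquitin from Mdm2, rose by 0.25 at 24 hpf (SE 0.07, adjusted p = 0.042). This call was lost when any 1 of the 8 arrays of 24 hpf, or morphant replicate 2 at 48 hpf, was left out (adjusted p from 0.055 to 0.13), and with the replicate number as a block (adjusted p = 0.075). The ligase gene *rchy1* and the deubiquitinase gene *usp10* had log2 differences of 0.26 (adjusted p = 0.063) and 0.23 (adjusted p = 0.077) at 24 hpf, and a further probe set of *usp10* had -0.06. Of the 7 other settings that kept all arrays, 5 called *rchy1* raised and 6 called *usp10* raised (with array weights adjusted p = 0.0084 and 0.0066). The gene *usp7*, which encodes the deubiquitinase that stabilizes Mdm2 and p53, had -0.14 (adjusted p = 0.21), and its further probe set -0.31. The ligase gene *ube4b* fell by 0.26 at 48 hpf (adjusted p = 0.024). Of the 6 genes of ubiquitin conjugation *ube2d1a* alone was called, with a fall of 0.31 at 48 hpf (adjusted p = 0.0065). At that time 22.6% of all probe sets were called in either direction. One other gene of the 6, *ube2d3*, had an unadjusted p under 0.05 at 48 hpf.

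Several ribosomal and nucleolar proteins bind Mdm2 when ribosome production is disturbed. Of 9 such genes 3 rose at 48 hpf, all of them nucleolar, where 12.8% of all probe sets were raised. The nucleophosmin gene *npm1a* rose 1.76-fold (log2 difference 0.82, SE 0.09, adjusted p = 1.0e-05 from limma), *gnl3l* rose by 0.55 (SE 0.10, adjusted p = 8.2e-04) and *gnl3*, which encodes nucleostemin, by 0.45 (SE 0.11, adjusted p = 0.0050). A further probe set of *npm1a* had a difference of 0.02 at 48 hpf. At 24 hpf *npm1a* was not called (0.17, adjusted p = 0.25), and its effects differed between the times by 0.65 (adjusted p = 0.0056). The ribosomal protein genes *rpl5a*, *rpl5b*, *rpl11* and *rpl23*, whose products bind Mdm2 in mammals, had log2 differences from -0.01 to 0.08 at 24 hpf and from -0.17 to 0.10 at 48 hpf, with no calls.

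As *mdm2* is a p53 target, it was set beside the other targets of p53, of which 31 have a probe set of their own. This list was drawn up with earlier results of these arrays known, so its counts are a description and no independent test. Its 3 members grouped under no named role (*rps27l*, *lnx1* and *isg15*) all rose past a fold of 2 at 24 hpf. At 24 hpf 16 of the 31 rose, 11 of them past a fold of 2, and 2 fell (*ppm1da* and *foxo3a*, whose 3 probe sets did not share a sign), while 4.43% of all probe sets were raised. The median log2 difference was 0.39. At 48 hpf 12 rose, 7 past a fold of 2, and 2 fell, while 12.8% of all probe sets were raised, and the median was 0.26. Without control replicate 3 of 48 hpf the counts were again 16 and 2 at 24 hpf and 12 and 2 at 48 hpf. At 24 hpf 5 of 10 cell death genes, 5 of 9 arrest and growth control genes and 2 of 4 stress and metabolism genes rose. At 48 hpf 3, 4 and 2 of them rose. Of the 5 targets that act in DNA repair and replication 1 rose at 24 hpf, *rrm2b* (0.39, adjusted p = 0.022), and 0 at 48 hpf. Whether these roles differed was not tested.

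Against these targets *mdm2* had a large rise at 24 hpf and a rise of similar size at 48 hpf. Larger differences at 24 hpf were those of the ubiquitin-like *isg15* (3.48, adjusted p = 1.8e-13), *phlda3*, which encodes an inhibitor of Akt (3.16, adjusted p = 1.8e-13), *casp8* (2.93, adjusted p = 8.5e-12), the ubiquitin ligase gene *lnx1* (2.79, adjusted p = 1.9e-11), *gadd45aa*, which encodes a growth arrest protein (2.63, adjusted p = 9.1e-12), and *rps27l* (2.63, adjusted p = 9.1e-13). At 48 hpf only *rps27l* of the list, with 2.39 (SE 0.09, adjusted p = 2.7e-11), had a larger difference than *mdm2*. Control means of *isg15*, *gadd45aa*, *casp8*, *lnx1* and *phlda3* lay between 4.19 and 5.59. Those of *mdm2* were 7.51 and 6.93 and those of *rps27l* 8.76 and 8.20. Whether a low signal reduced any of these differences was not tested. The log2 difference of *mdm2* at 48 hpf was 91.6% of that at 24 hpf, and that of *mdm4* 72.3%. For the 16 targets that rose at 24 hpf this share ran from -14.2% (*btg2*) over a median of 49.2% to 91.2% (*ccng1*, which encodes cyclin G1). No error was computed for these shares. These 16 were picked for their rise at 24 hpf, which itself favours a smaller value at 48 hpf. Of them 9 had a rise that was smaller at 48 hpf by the test of the difference, where 2.52% of all probe sets had an effect that was higher at 24 hpf, among them *casp8* (by 1.40, adjusted p = 1.5e-04) and *isg15* (by 2.73, adjusted p = 1.4e-08). The sestrin gene *sesn3* (84.4%), *ccng1* and *rps27l* (91.0%) were not called as different between the times, like *mdm2*. The others of the 16 that were not called were *plk3* (60.4%), *pmaip1* (57.8%), *rrm2b* (5.19%) and *btg2*. The lack of a call is thus no sign that a rise was kept. The further probe set of *pmaip1* had log2 differences of 0.10 at 24 hpf and -0.05 at 48 hpf. That of *btg2* had 0.11 and -0.03. Whether the change over time differed between *mdm2* and another target was not itself tested.

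**Figure D3:**
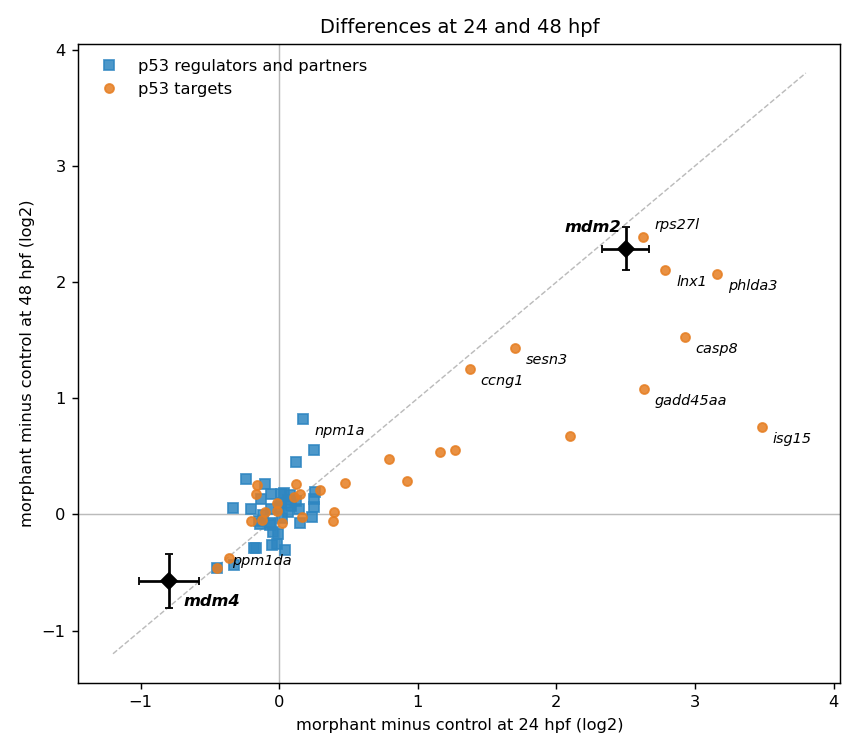
Log2 difference between morphants and controls at 24 hpf (horizontal axis) and 48 hpf (vertical axis) for p53 regulators and partners (blue squares, 40 genes), p53 targets (orange circles, 31 genes) and the 2 inhibitors (black diamonds with 95% confidence intervals). On the dashed line both differences are equal. The *mdm2* point lies close to it beside *rps27l*, *isg15* and *gadd45aa* lie far below it, and *mdm4* lies lower than every other gene shown at both times.

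Of 8175 named genes, the 5 whose profile over the 15 arrays was most like that of *mdm2* all rose in morphants at both times. Likeness was measured as the root mean square (RMS) of the difference between 2 profiles, each centred on its own mean. Genes picked in this way had to share the rise of *mdm2*, which dominates its profile, so that rise is no separate result. The profile nearest to *mdm2* was that of *rps27l*, which encodes a ribosomal protein that p53 induces in human cells (RMS 0.173 on the log2 scale). The next were *casp8* (0.323), *phlda3* (0.331), *rspo1*, whose secreted product enhances Wnt signaling (0.359), and *bmb*, a gene needed for nuclear fusion in the early embryo (0.416). The median over all genes was 1.24, and a gene with no change over the arrays would score 1.23. Of these 5 only *rps27l* also fell in controls from 24 to 48 hpf (by 0.56, adjusted p = 8.6e-05), as *mdm2* did by 0.58. The other 4 had log2 differences from 0.11 to 0.18 over this day in controls, with no calls. Their control means at 24 hpf were 4.41 to 5.41, below the array medians of 5.76 to 5.92. Those of *mdm2* and *rps27l* were 7.51 and 8.76. Whether a low signal hid a fall in the other 4 was not tested. Such a fall was not particular to *mdm2* and *rps27l*. Among the 31 p53 targets 6 were lower at 48 than at 24 hpf in controls and 9 higher, and 25.0% of all probe sets were lower. These likenesses are a description over arrays that fall into groups, and were not tested.

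For *mdm4* the nearest profiles were those of *arhgap12b* (RMS 0.158), the nucleoside transporter gene *slc29a2* (0.183), *mbd3b*, which encodes a protein of the NuRD chromatin complex (0.185), the splicing gene *u2surp* (0.186) and *tle2a*, which encodes a Groucho corepressor (0.186). The median over all genes was 0.445, and a gene with no change over the arrays would score 0.377. All 5 were lowered at 24 hpf, by 0.48 to 0.64, and 3 of them at 48 hpf (*tle2a*, *slc29a2* and *mbd3b*). A fall like that of *mdm4* is what this likeness selects for, so it is no separate result. The calls of *slc29a2* and *mbd3b* at 48 hpf were lost with the replicate number as a block (adjusted p = 0.058 and 0.060), with each time point alone (0.086 and 0.17) and after centring (0.093 and 0.21). They were also lost without control replicate 1 (log2 differences -0.32 and -0.25) or control replicate 4 (-0.39 and -0.20). The call of *slc29a2* was also lost without morphant replicate 2 or 4 of 48 hpf. That of *mbd3b* was lost without any 1 of the 4 morphant arrays of 48 hpf. The signal of *slc29a2* was low, with group means from 3.78 to 4.35. Each of the 5 differences at 24 hpf was smaller than that of *mdm4*. The 5 genes are not on either list of the p53 pathway. This holds for most genes, since the lists have 40 and 31 measured genes and 8175 genes were searched.

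**Figure D4:**
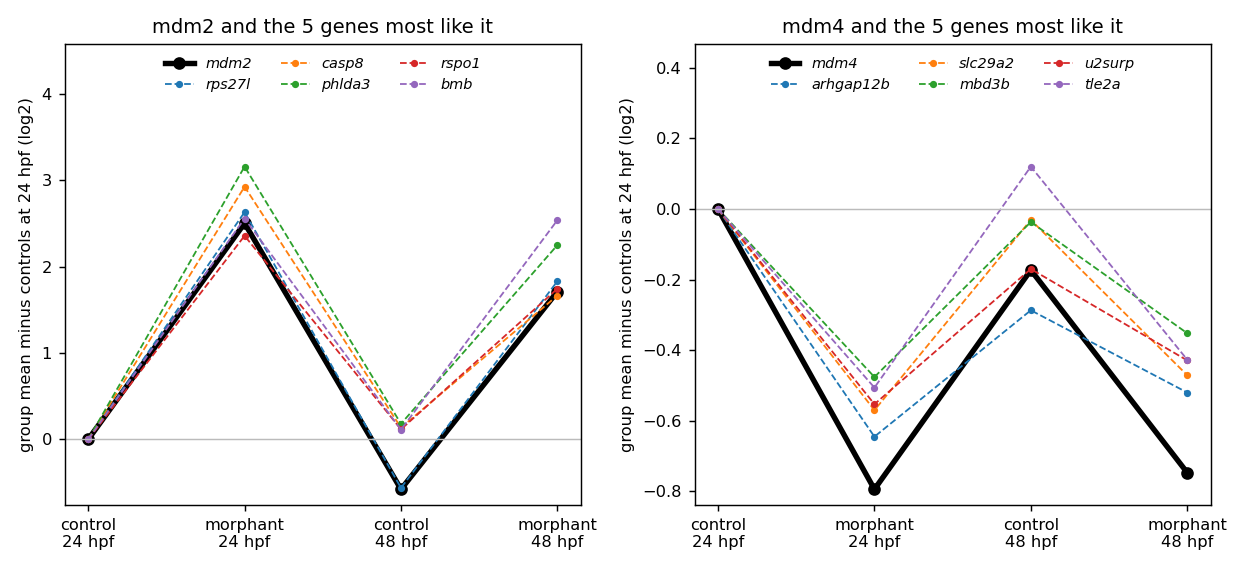
Group means of *mdm2* (left) and *mdm4* (right) in black, with the 5 genes whose profiles over the 15 arrays are most like each of them (dashed), all as log2 difference from the mean of controls at 24 hpf. On the left only *rps27l* follows *mdm2* below 0 in controls at 48 hpf. The other genes on the left start from low control means (4.41 to 5.41 at 24 hpf). On the right *mdm4* has the deepest fall in morphants at both times.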

How the data were processed

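The authors hybridized 1 pool of embryos per array, checked the arrays with AffyQCReport and normalized them by RMA (background correction, quantile normalization, 1 value per probe set). The deposited log2 values entered every step without further scaling. Versions of these tools are not given in the sources used here. The table holds 15617 rows, of which 115 are spike and other controls of the manufacturer and were not tested. Gene symbols came from the platform's annotation, and 10795 probe sets carry 1 symbol, 135 several and 4572 none. Where several probe sets shared a gene, the brightest on average stood for it. No genome build goes with these values, so no positions are given.

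All 4 group means were estimated with limma 3.58.1 in R 4.3.3 (lmFit and eBayes, Benjamini and Hochberg adjustment), and the exact tests used SciPy 1.17.1. Tables and figures were made with Python 3.11.15, pandas 2.3.3 and matplotlib 3.10.9. On simulated data of this design, with 15502 probe sets, 78 of 100 shifts of 0.5 and 100 of 100 shifts of 1 at 24 hpf were called, with 4 false calls. The simulated noise was normal and independent between probe sets, with the same SD in all groups and no array that stood apart. The real arrays differ in this, so these rates need not hold for them. Genes named are the members, the up to 5 members of each list with the smallest adjusted p at each time, the 5 genes most like each member, and some chosen after their values were seen (*ppm1db*, *chek1*, *usp7*, *ube4b*, *ube2d1a*, *ube2d3*, *rrm2b*, *foxo3a*, *btg2*, *plk3*, *pmaip1* and the ribosomal protein genes). The members and lists were chosen with earlier results of these data known, and the study had itself named *mdm2* and *mdm4* from these arrays. The study's lists asked for a fold of at least 2 besides a false discovery rate of 5%. In the fit used here *mdm4* did not reach that fold at 24 hpf (1.73-fold). Of 63 symbols drawn up for the regulators and 52 for the targets, 40 and 31 matched a probe set, and *ppm1da* is in both. Each array is a separate pool, and nothing says that the pools came from separate clutches. The p-values therefore measure the spread between these pools. Alternatives were a replicate block, a fit to 1 time point only, cyclic loess, weights per array, brighter probe sets alone, centring on 80 probe sets of ribosomal protein genes, a trended robust eBayes, a fold threshold and leaving out each array.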

Additional observations from a re-analysis of the deposited data

Results flagged for a closer look

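Of 78 groups of 4 arrays examined for the named genes, 5 held an array whose gap to the nearest other array, as a share of the whole range of the group, exceeded Dixon's 95% critical value, and chance alone gives this in about 5% of groups. For *mdm2* this was morphant replicate 4 at 48 hpf, at 9.33 where the other arrays read 9.18 to 9.19 (gap 0.913 of the range). The others were *ppm1da* in morphant replicate 1 at 48 hpf (8.73 against 8.65 to 8.66, 0.943), *sesn3* in the same array (9.36 against 9.42 to 9.42, 0.934), *usp2a* in morphant replicate 4 at 24 hpf (8.01 against 7.81 to 7.84, 0.842) and *casp8* in control replicate 4 at 24 hpf (4.83 against 4.49 to 4.54, 0.840). Each of these gaps is small beside the difference between morphants and controls, except that of *usp2a*.

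Effects that differed between the times by limma's test were seen in neither *mdm2* nor *mdm4*, and among the other named genes in those given here. The effect at 24 hpf minus that at 48 hpf was 2.73 for *isg15*, 1.55 for *gadd45aa*, 1.40 for *casp8*, 1.09 for *phlda3*, 0.73 for *rspo1*, 0.68 for *lnx1*, -0.54 for *chek1* and -0.65 for *npm1a* (log2 scale).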

How the results depend on the processing

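In all alternatives except the fold threshold *mdm2* stayed raised and *mdm4* lowered at both times. With a fold of at least 2 added, *mdm2* was still called at both times. The *mdm4* folds of 1.73 at 24 hpf and 1.49 at 48 hpf did not pass it. Without 1 array at a time the differences ran from 2.45 to 2.57 (24 hpf) and 2.24 to 2.34 (48 hpf) for *mdm2*, and from -0.84 to -0.73 and -0.69 to -0.49 for *mdm4*. With the other settings they ran from 2.50 to 2.54, 2.20 to 2.43, -0.79 to -0.75 and -0.73 to -0.43. The effect of *mdm2* at 24 hpf minus that at 48 hpf then ran from 0.11 (centring) to 0.31 (array weights). It was not called in any of them, with the smallest adjusted p = 0.057 from limma with array weights. When arrays were centred on ribosomal protein genes, the median difference moved up by 0.04 (24 hpf) and 0.14 (48 hpf). With it the difference of *mdm4* between the times in morphants was called (0.32, adjusted p = 0.011). Without 1 array at a time this difference of *mdm4*, 48 minus 24 hpf in morphants, ran from -0.0332 to 0.10. The within-array shift of *mdm2* against *mdm4* at 24 hpf ran from 3.25 to 3.35 without 1 array, where 4 against 3 arrays cannot give an exact p under 0.057.

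The replicate numbers were not taken as pairs, since not every same-numbered pair correlated over 0.1. The deviations of same-numbered arrays correlated by 0.02 to 0.20 at 24 hpf (3 of 4 pairs over 0.1) and by -0.45 to -0.08 at 48 hpf. Of the morphant arrays with a control of their number, 3 of 4 at 24 hpf and 0 of 3 at 48 hpf correlated best with it. With the replicate number as a block the differences of *mdm2* were 2.50 and 2.32 and those of *mdm4* -0.79 and -0.54, all called, and 0 regulators were raised at 24 hpf (without the block 1, with 5 at an unadjusted p under 0.05 in limma).

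Counts moved more. Each time point alone gave 1207 probe sets raised and 1376 lowered at 24 hpf, 1116 and 864 at 48 hpf, 5 regulators raised and 4 lowered at 24 hpf, and 3 lowered at 48 hpf. Array weights gave 1480 and 1603 probe sets and 4 and 4 regulators at 24 hpf, and 8 regulators raised at 48 hpf. A fold of 2 left 59 raised and 16 lowered at 24 hpf and 108 and 33 at 48 hpf. Centring gave 4600 and 726 probe sets, 15 and 2 regulators and 1 lowered target at 48 hpf, and 3 raised regulators at 24 hpf, as did cyclic loess and the brighter probe sets, while eBayes with trend and robust options gave 2. The brighter probe sets held 1 lowered target at each time. Without 1 array at a time 441 to 1077 probe sets were raised and 542 to 1327 lowered at 24 hpf. Regulators then numbered 0 to 4 raised and 1 to 3 lowered at 24 hpf, and 3 to 6 lowered at 48 hpf, with 1 to 2 lowered targets at each time. The upper ends at 24 hpf came without control replicate 3 at 48 hpf. At 48 hpf the difference of *usp10*, -0.03, became 0.12 with centring and 0.0051 with array weights, and ran from -0.13 to 0.0789 without 1 array. A mean over probe sets was not run for *mdm2* and *mdm4*, which have 1 each. With Pearson's r in place of the RMS, 2 of the 5 genes most like *mdm2* and 3 of those most like *mdm4* were the same.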
